A study of Mus musculus with 6 samples.

Results

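Integrins are surface receptors built from one alpha and one beta chain, and 10 genes for chains used by leukocytes were followed here in T cells sorted from mouse skin. The genes were Itga1, Itga2, Itga4, Itgae, Itgal and Itgam (alpha chains) and Itgb1, Itgb2, Itgb3 and Itgb7 (beta chains). They were taken by their symbols from the deposited count table, which holds 15106 genes, and all 10 were found there. Skin Tregs, the suppressive T cells that express FOXP3, gave 4 libraries and skin Teffs, the other sorted T cell group, gave 2. All 6 libraries came from FOXP3-GFP mice aged 6 weeks, in which a green fluorescent reporter marks cells that express FOXP3. No treatment is named in the labels, which give neither the sort gate of the Teffs nor the number of animals behind a library. Any p-value here thus covers the spread among these libraries, and some of that spread may be technical.

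An integrin chain reaches the cell surface only with a partner, so the chains are best read in pairs. The product of Itgal pairs with that of Itgb2 to form LFA-1, which binds ICAM-1 and holds T cells to endothelium and to antigen-presenting cells, and the product of Itgam uses the same beta chain to form Mac-1, a receptor best known on myeloid cells. Itgae encodes the alpha E chain, CD103, which pairs with the beta 7 chain from Itgb7 and binds E-cadherin on epithelial cells, and T cells that live in epidermis are known for it. The alpha 4 chain from Itga4 can take either beta chain: with beta 1, from Itgb1, it binds VCAM-1 and fibronectin, and with beta 7 it binds the gut addressin MAdCAM-1. The collagen receptors VLA-1 and VLA-2 join the products of Itga1 and Itga2 to beta 1. Beta 3, from Itgb3, pairs with the alpha V chain in many cells and with the alpha IIb chain on platelets.

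The beta 1 and beta 7 genes and their shared partner Itga4 had the promoters shown here, because the ratio between both beta chain genes, described below, did not overlap between groups. RefSeq promoter windows (GRCm38.p6) were found for 6 of the 10 genes and run from 250 bases before to 50 bases after the start. Capitals mark matches, on either strand, to GGGCGG (the GC box bound by Sp and KLF factors), CGGAAG (ETS), TGTGGT (RUNX) or CAGACA (SMAD). The windows lie at chr8:128685404-128685703 on the plus strand (Itgb1), chr15:102231886-102232185 on the minus strand (Itgb7) and chr2:79255176-79255475 on the plus strand (Itga4).
Itgb1: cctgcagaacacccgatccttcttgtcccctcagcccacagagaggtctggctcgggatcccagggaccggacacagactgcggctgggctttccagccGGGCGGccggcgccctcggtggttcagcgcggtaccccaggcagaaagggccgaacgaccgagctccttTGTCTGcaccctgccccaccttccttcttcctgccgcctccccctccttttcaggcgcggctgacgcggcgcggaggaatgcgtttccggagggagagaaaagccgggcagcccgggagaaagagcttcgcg
Itgb7: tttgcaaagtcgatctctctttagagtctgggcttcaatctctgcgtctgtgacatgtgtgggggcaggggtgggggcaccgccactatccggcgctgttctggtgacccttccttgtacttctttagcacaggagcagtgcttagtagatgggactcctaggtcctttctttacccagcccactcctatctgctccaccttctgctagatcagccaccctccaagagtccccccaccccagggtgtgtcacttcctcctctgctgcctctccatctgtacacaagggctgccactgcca
Itga4: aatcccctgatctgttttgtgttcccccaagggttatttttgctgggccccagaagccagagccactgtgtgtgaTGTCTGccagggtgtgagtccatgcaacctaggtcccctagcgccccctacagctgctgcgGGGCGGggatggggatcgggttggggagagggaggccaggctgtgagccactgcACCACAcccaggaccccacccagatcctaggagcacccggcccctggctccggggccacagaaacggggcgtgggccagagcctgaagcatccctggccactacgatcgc
The Itgb1 window holds 1 GC box and 1 SMAD match, the Itga4 window holds 1 GC box, 1 RUNX match and 1 SMAD match, and the Itgb7 window holds 0 matches to these letters. GC content was 67.3% for Itgb1, 64.3% for Itga4 and 56.3% for Itgb7. Among all 32851 windows of this length, 35.7% hold the GC box, 16.9% the ETS, 16.8% the RUNX and 21% the SMAD letters. A match describes the letters and is not a bound site.

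Libraries held 4902126 to 7468778 counts in genes, and levels are given as CPM, counts scaled to TMM-adjusted library size. The labels of the sort held: Foxp3 was at 103 to 233 CPM in Tregs and 7.17 to 11.3 CPM in Teffs, and all 7 T cell markers listed had counts in every library. Treg 3 stood apart by transcripts of other skin cells, with the 7 fibroblast markers summing to 2070 CPM and the 8 keratinocyte markers to 749 CPM. Teff 1 was next, at 199 and 118 CPM, and the other libraries held 3.85 to 8.48 CPM and 0.285 to 39.1 CPM. In the keratinocyte sum Krt86 stood in for the listed Krt1, at 5.26 CPM in Treg 3, 1.59 CPM in Teff 1 and 0 elsewhere. Differences below were tested with edgeR's quasi-likelihood test on all 11775 genes that passed a filter on low counts, with Benjamini-Hochberg adjustment over all of them.

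None of the 10 integrin genes passed at an adjusted p under 0.05, a threshold passed by 0.0425% of genes tested. All 10 had passed the filter on low counts. At an unadjusted p under 0.05 there were 2, Itgb1 (lower in Tregs) and Itgae (higher in Tregs), against 4.73% of all genes and, for the lower direction alone, 2.31%. DESeq2, run on the same genes, called 1 of the 10, Itgb1, against 1.55% of all genes, and limma-voom called 0. Treg and Teff libraries did not overlap for 3 of the 10, against 15% of all genes. Itgb1 and Itga2 lay lower in every Treg library, as 9.49% of all genes did, and Itgae lay higher, as 5.51% did. The median log2 fold change, coded Treg minus Teff, was -1.04 over the 10 genes and 0.07 over all genes tested, with 7 of the 10 negative. In these bulk libraries, fewer cells that express a gene and less of its RNA per cell cannot be told apart.

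**Figure D1:**
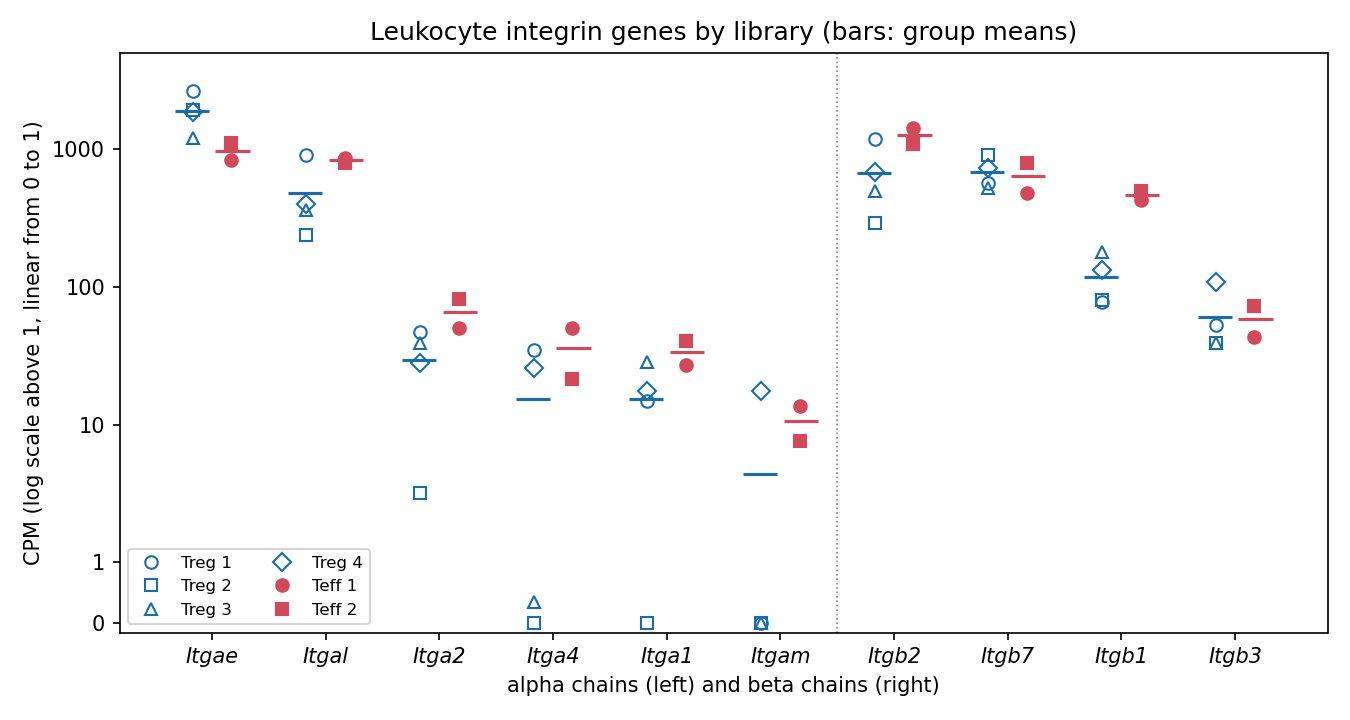
CPM of each integrin gene in each library, on an axis that is logarithmic above 1 and linear from 0 to 1; blue symbols are the 4 Treg libraries, red symbols the 2 Teff libraries and short lines the group means. Itgb1 in Tregs sits between 77.6 and 178 CPM, below both Teff libraries, and Itgae in Tregs sits between 1199 and 2635 CPM, above both.

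Itgb1, the beta chain of the VLA integrins, had the lowest p of the 10 genes. It lies on chromosome 8 from 128685654 to 128733200 (GRCm38, GENCODE M21), and no exon of another annotated gene overlaps its exons. Its level was 77.6, 80.5, 178 and 132 CPM across Treg 1 to Treg 4, against 430 and 497 CPM for Teff 1 and Teff 2. The highest Treg library stayed below the lower Teff library. The means were 117 ± 47.8 CPM (SD, n = 4) for Tregs against 463 ± 47.2 CPM (SD, n = 2) for Teffs, so Teffs were 3.95-fold higher, with a log2 fold change of -1.98 ± 0.42 (SE). In edgeR's quasi-likelihood test the unadjusted p was 0.00161, rank 56 of 11775, and the adjusted p was 0.332. DESeq2 gave a log2 fold change of -1.96 with an adjusted p of 0.00654, and the authors' deposited table lists -2.04 with an FDR of 0.155. Leaving out any single library kept the log2 fold change between -2.25 and -1.83.

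Other cells of skin also use beta 1, so marker levels are given beside this gene. Among Tregs, Itgb1 was highest in Treg 3, the library with the most fibroblast and keratinocyte marker counts. Without Treg 3 and Teff 1 together, the log2 fold change was -2.36, at an edgeR adjusted p of 0.9999, with 1 Teff library left. In Teff 2, where Itgb1 was highest of all libraries, the fibroblast markers summed to 4.07 CPM and the keratinocyte markers to 39.1 CPM, against 0.285 to 20.7 CPM of keratinocyte markers in Treg 1, Treg 2 and Treg 4. For the CD8, gamma-delta T cell and endothelial lists every Treg library lay below both Teff libraries, as for 9.49% of single genes. The Langerhans and dendritic cell list went the other way, at 41.0 to 168 CPM in Tregs and 32.8 and 37.6 CPM in Teffs. No test was run on the sums. The CD8 markers Cd8a and Cd8b1 summed to 0.180 to 65.6 CPM in Tregs and 93.6 to 142 CPM in Teffs. Of 4 gamma-delta T cell markers 2 were in the table, Cd163l1 and Sox13, and both were at 0 in every Treg library. They summed to 15.5 CPM in Teff 1 and 14.9 CPM in Teff 2. Sox13 was at 7.28 CPM in Teff 1 and 0 in Teff 2, where the sum was Cd163l1 alone. The 4 endothelial markers in the table summed to 16.1 to 68.7 CPM in Tregs and 88.8 to 121 CPM in Teffs, nearly all of it Pecam1, which leukocytes express too. Groups overlapped for the B cell markers (Tregs at 3.68 to 40.9 CPM, Teffs at 21.5 and 23.4 CPM) and for the NK cell and ILC markers (0 in 3 Tregs and 24.0 CPM in Treg 4, 8.61 and 9.11 CPM in Teffs). The part of these cells in the Itgb1 difference was not tested.

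Itgb7 did not follow Itgb1. The gene lies on chromosome 15 from 102215995 to 102231944, and its level was 564, 915, 523 and 734 CPM across Treg 1 to Treg 4, against 477 and 800 CPM for Teff 1 and Teff 2. The groups overlapped throughout, with means of 684 ± 179 CPM (SD, n = 4) and 639 ± 228 CPM (SD, n = 2). The log2 fold change was 0.10 ± 0.38 (SE), and its sign flipped to -0.02 with upper-quartile scaling, so no direction can be given. Itgb7 was also the steadiest of the 10 genes, with a 1.92-fold range over all 6 libraries.

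The ratio of the beta chain genes whose products can join alpha 4 kept the groups apart, in a design too small to pass a test. Per kilobase of exon, Itgb7 stood above Itgb1 by 10.7, 16.7, 4.32 and 8.18 times in Treg 1 to Treg 4 and by 1.64 and 2.37 times in Teff 1 and Teff 2. All Treg ratios exceeded both Teff ratios, and the lowest was that of Treg 3. The mean log2 ratio was 2.59 ± 0.81 (SD, n = 4) in Tregs and 0.42 ± 0.38 (SD, n = 2) in Teffs, on CPM with a pseudocount of 0.5. Their difference of 2.17 gave p = 0.0667 in an exact two-sided permutation test, the smallest p that 4 libraries against 2 allow, and 0.533 after Benjamini-Hochberg adjustment over the 8 ratios compared. Leaving out single libraries kept the difference between 1.87 and 2.52. It is not separate from the Itgb1 difference given above (log2 fold change -1.98), because Itgb7 changed little (0.10).

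**Figure D2:**
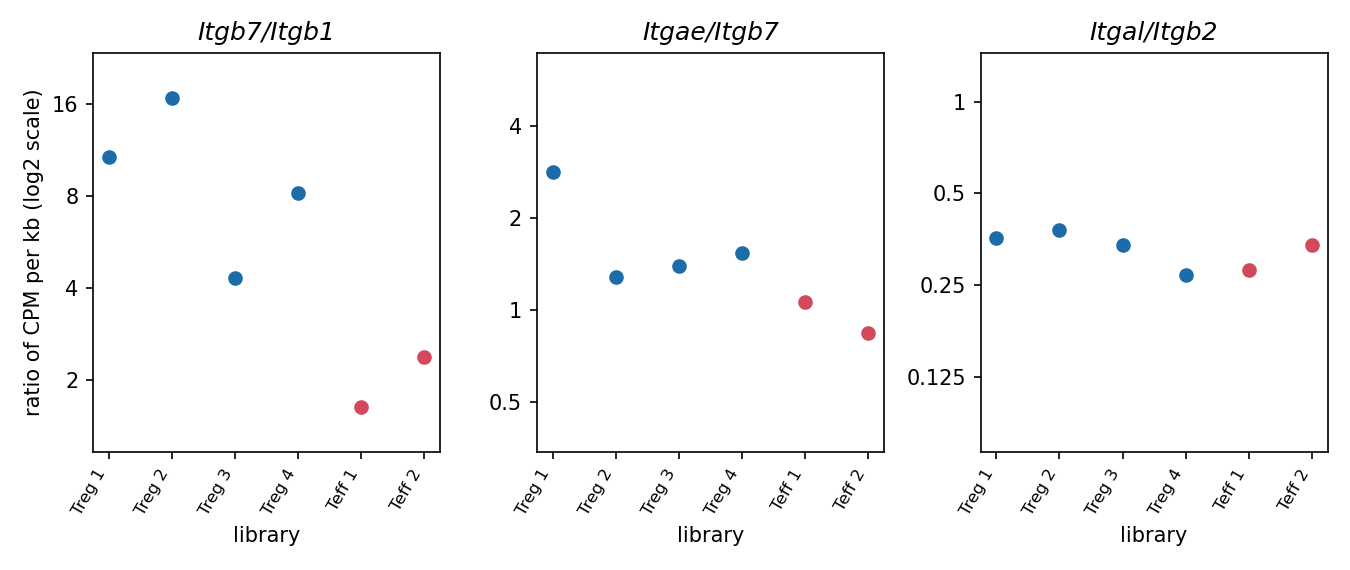
Ratio of CPM per kilobase of exon between 3 pairs of integrin genes in each library, on log2 axes that span the same number of doublings; blue points are Tregs and red points Teffs. Itgb7/Itgb1 runs from 4.32 to 16.7 in Tregs against 1.64 and 2.37 in Teffs, while Itgal/Itgb2 stays between 0.271 and 0.378 in all 6 libraries.

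Itgae, which encodes the E-cadherin receptor chain CD103, had the highest mean CPM of the 10 genes in Tregs. It lies on chromosome 11 from 73090583 to 73147446, with no exon overlap to other genes. Its level was 2635, 1931, 1199 and 1865 CPM across Treg 1 to Treg 4, against 837 and 1112 CPM for Teff 1 and Teff 2. Every Treg library lay above both Teff libraries, although Treg 3 exceeded Teff 2 by little. The means were 1908 ± 587 CPM (SD, n = 4) and 975 ± 194 CPM (SD, n = 2), a 1.96-fold difference with a log2 fold change of 0.97 ± 0.39 (SE). In edgeR's quasi-likelihood test the unadjusted p was 0.0375 and the adjusted p 0.938, so the difference did not hold up over all genes. Itgae stood among the 3 highest of the 10 genes by level per kilobase in Teffs too.

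**Figure D3:**
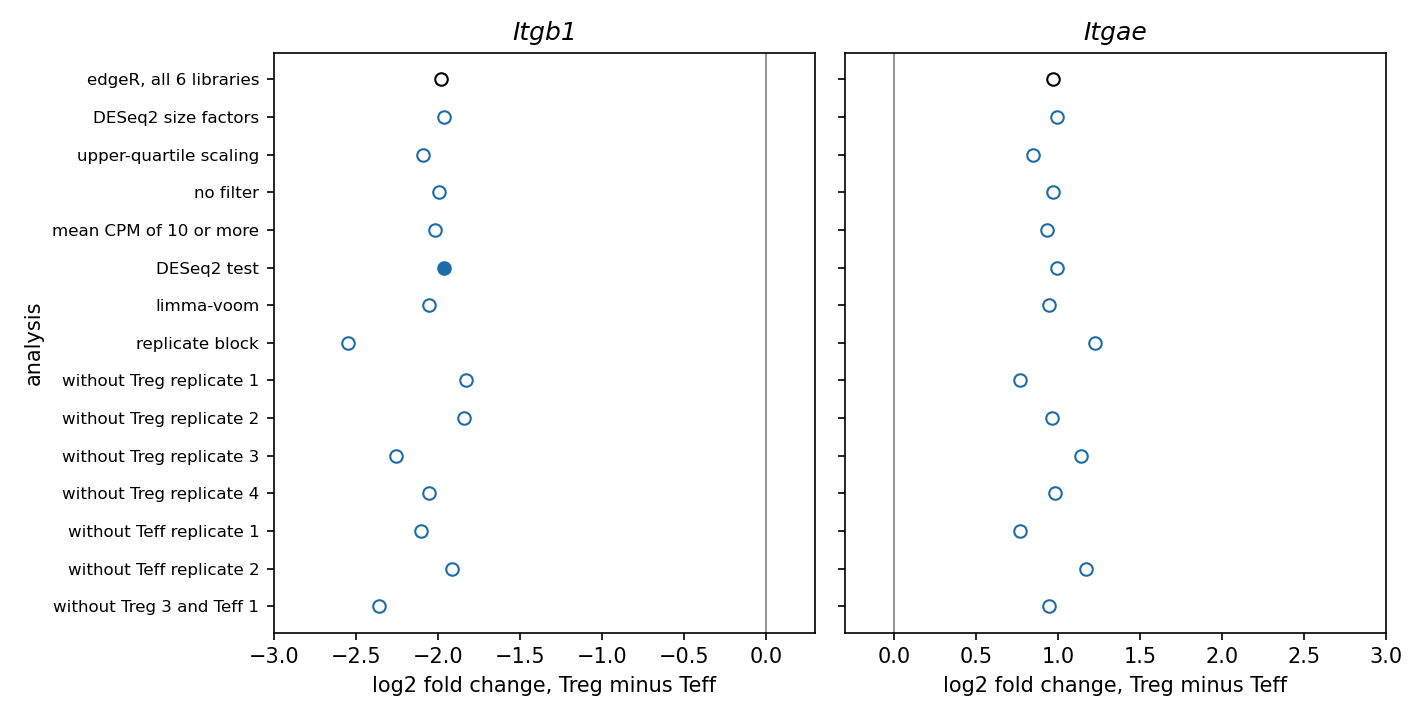
Log2 fold change, Treg minus Teff, of Itgb1 (left) and Itgae (right) in the main analysis (black) and 14 alternatives (blue); a filled symbol marks an adjusted p under 0.05. Itgb1 stays between -2.55 and -1.83 and is filled for the DESeq2 test alone, and Itgae stays between 0.77 and 1.22 with no filled symbol.

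Against its partner gene Itgb7, Itgae was higher per kilobase in all 4 Treg libraries, by 2.82, 1.28, 1.39 and 1.54 times. The ratios in Teffs were 1.06 and 0.840. Groups did not overlap, and the highest value was that of Treg 1. The difference in mean log2 ratio was 0.82, with p = 0.133 in the exact permutation test and 0.533 after adjustment over the 8 ratios. Without Treg 1 the difference was 0.56.

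The LFA-1 genes Itgal and Itgb2 varied widely between Treg libraries and did so together. Itgal, on chromosome 7 from 127296260 to 127335138, was at 912, 239, 365 and 401 CPM across Treg 1 to Treg 4, against 870 and 798 CPM for Teff 1 and Teff 2. Itgb2, on chromosome 10 from 77530252 to 77565708, was at 1187, 293, 499.98 and 687 CPM in Tregs and at 1438 and 1094 CPM in Teffs. For both genes Treg 1 lay within or above the Teff range and the other 3 Treg libraries lay below it. Itgal spanned a 3.82-fold range and Itgb2 a 4.91-fold range over the 6 libraries, while their ratio per kilobase spanned 1.40-fold. The log2 ratio differed by 0.11 between groups (exact permutation p = 0.6, adjusted 0.889).

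Neither LFA-1 gene passed the test. The log2 fold change was -0.80 ± 0.51 (SE) for Itgal and -0.92 ± 0.51 (SE) for Itgb2, at unadjusted p of 0.156 and 0.109. Without Treg 1 the log2 fold changes were -1.32 for Itgal and -1.36 for Itgb2, and the edgeR adjusted p were 0.589 and 0.691. The lower means of Tregs thus rest on 3 of the 4 libraries.

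The alpha chain genes that pair with beta 1 were low and uneven between libraries. Itga2, of the collagen receptor VLA-2, was at 46.9, 3.20, 39.4 and 28.1 CPM across Treg 1 to Treg 4, against 50.6 and 81.4 CPM for Teff 1 and Teff 2. All Treg libraries lay below both Teff libraries, the highest by little, and the log2 fold change was -1.17 ± 1.01 (SE) at an unadjusted p of 0.284. Itga1, of the collagen receptor VLA-1, was at 14.8, 0, 28.6 and 17.5 CPM in Tregs and at 27.1 and 40.7 CPM in Teffs. The count of 0 in Treg 2 allows up to 0.480 CPM, which is 3 counts. The groups overlapped, with a log2 fold change of -1.15 ± 1.74 (SE), which was -0.74 without Treg 2 and -2.70 in limma-voom. Itga1 and Itga2 are neighbours on chromosome 13, 20995 bases apart (114953096 to 115101964 and 114833081 to 114932100), and both were lowest in Treg 2 and highest in Teff 2.

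Itga4, the chain that beta 1 and beta 7 share, was uneven. It was at 35.0, 0, 0.351 and 25.5 CPM across Treg 1 to Treg 4, against 50.2 and 21.3 CPM for Teff 1 and Teff 2. Only 2 counts were found in Treg 3 and 0 in Treg 2, while Treg 1 and Treg 4 reached the range of Teffs. The log2 fold change of -1.23 ± 2.03 (SE) was smaller than its error. Its size moved in both directions, to -3.92 in limma-voom and -2.05 without Treg 1, and to -0.48 without Teff 1 and -0.08 without Treg 3 and Teff 1. The gene lies on chromosome 2 from 79255426 to 79333123, and exons of Cerkl on the other strand overlap 8.04% of its exonic bases.

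Itgam, the Mac-1 chain, was found in a single Treg library. Treg 4 held 123 counts (17.5 CPM), Treg 1 to Treg 3 held 0, and Teff 1 and Teff 2 held 103 and 39 counts (13.6 and 7.56 CPM). The fitted log2 fold change of -1.27 ± 2.82 (SE) rests on that library and was -9.002 without it, a value that depends on the fit because all other Treg counts are 0. In Treg 4 the 9 macrophage and monocyte markers summed to 607 CPM, against 171 to 200.3 CPM in the other Tregs and 246 and 299 CPM in Teffs. Of the sum in Treg 4, 464 CPM was Lyz2. Emr1 was at 43.7 CPM in Treg 4, 0 in the other Tregs and 13.5 and 0.194 CPM in Teffs. Mrc1 was at 47.5 CPM in Treg 4, 4.48 to 16.1 CPM in the other Tregs and 50.6 CPM in Teff 2. Cd14 was at 20.4 CPM in Treg 4 against 0.160 to 16.7 CPM in the other Tregs. Csf1r, the receptor for macrophage colony-stimulating factor, was at 0.713 CPM in Treg 4 against 78.1 CPM in Treg 1. Cd68, C1qa, C1qb and Fcgr1 were each higher in another Treg library than in Treg 4. Treg 4 also held the most Langerhans and dendritic cell marker counts, at 168 CPM. The other Tregs held 41.0 to 67.6 CPM and Teffs 32.8 and 37.6 CPM. This sum in Treg 4 was made of Xcr1 (60.2 CPM), Epcam (53.2 CPM), Flt3 (27.5 CPM), Itgax (24.7 CPM) and Zbtb46 (2.43 CPM), with Clec9a at 0. Epcam was at 48.2 CPM in Treg 1. The NK cell gene Klrb1c was at 24.0 CPM in Treg 4, 0 in the other Tregs, 1.59 CPM in Teff 1 and 0 in Teff 2. Ncr1 and Klre1, the other NK cell and ILC markers found, were at 0 in every Treg library, Treg 4 included. Itgax, which lies 11055 bases from Itgam on chromosome 7 and encodes another beta 2 partner of myeloid cells, was at 24.7 CPM in Treg 4, 0 in the other Tregs, 2.78 CPM in Teff 1 and 0 in Teff 2. The part of myeloid and NK cells in the Itgam counts was not tested. Itgam lies from 128062640 to 128118491, and exons of Gm49368 on the same strand overlap 68.7% of its exonic bases in GENCODE M21, so its counts are uncertain if the annotation used for counting held that gene.

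Itgb3, the beta 3 chain, was similar in means and uneven within Tregs. Its level was 53.0, 39.2, 38.9 and 109 CPM across Treg 1 to Treg 4, against 43.2 and 72.9 CPM for Teff 1 and Teff 2. Treg 4 stood above all other libraries. The log2 fold change was 0.05 ± 0.70 (SE), and its sign flipped to -0.06 with upper-quartile scaling. The gene lies on chromosome 11 from 104608000 to 104670476. Of 6 platelet markers listed, 4 were in the table and summed to 2.88 to 13.8 CPM in Tregs and 6.22 and 13.4 CPM in Teffs. The platelet partner Itga2b was at 0 in 3 of the 6 libraries, and all 6 held Itgb3. The part of platelets in the Itgb3 counts was not tested.

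Levels of different genes can be compared only per length. In Tregs the order by mean CPM per kilobase of exon was Itgae (416 ± 128, SD, n = 4), Itgb7 (247 ± 64.6), Itgb2 (218 ± 125), Itgal (72.9 ± 45.2), Itgb1 (28.7 ± 11.7), Itgb3 (10.2 ± 5.67), Itga2 (4.12 ± 2.68), Itga4 (1.09 ± 1.27), Itgam (0.873 ± 1.75) and Itga1 (0.819 ± 0.633). Library ranges of neighbours overlapped in this order except between Itgb1 and Itgb3 and between Itgb3 and Itga2. Itgae exceeded Itgb7 in 4 of 4 Treg libraries and Itgal exceeded Itgb1 in 4 of 4. In Teffs Itgb2 came first (415 ± 79.7, SD, n = 2), above Itgb7 (231 ± 82.4) and Itgae (213 ± 42.4), which overlapped each other. Itgal (127 ± 7.76) and Itgb1 (113 ± 11.6) overlapped in Teffs and lay far above Itgb3 (9.83 ± 3.56). Places 6 to 10 were filled by the same genes in the same order in both groups.

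**Figure D4:**
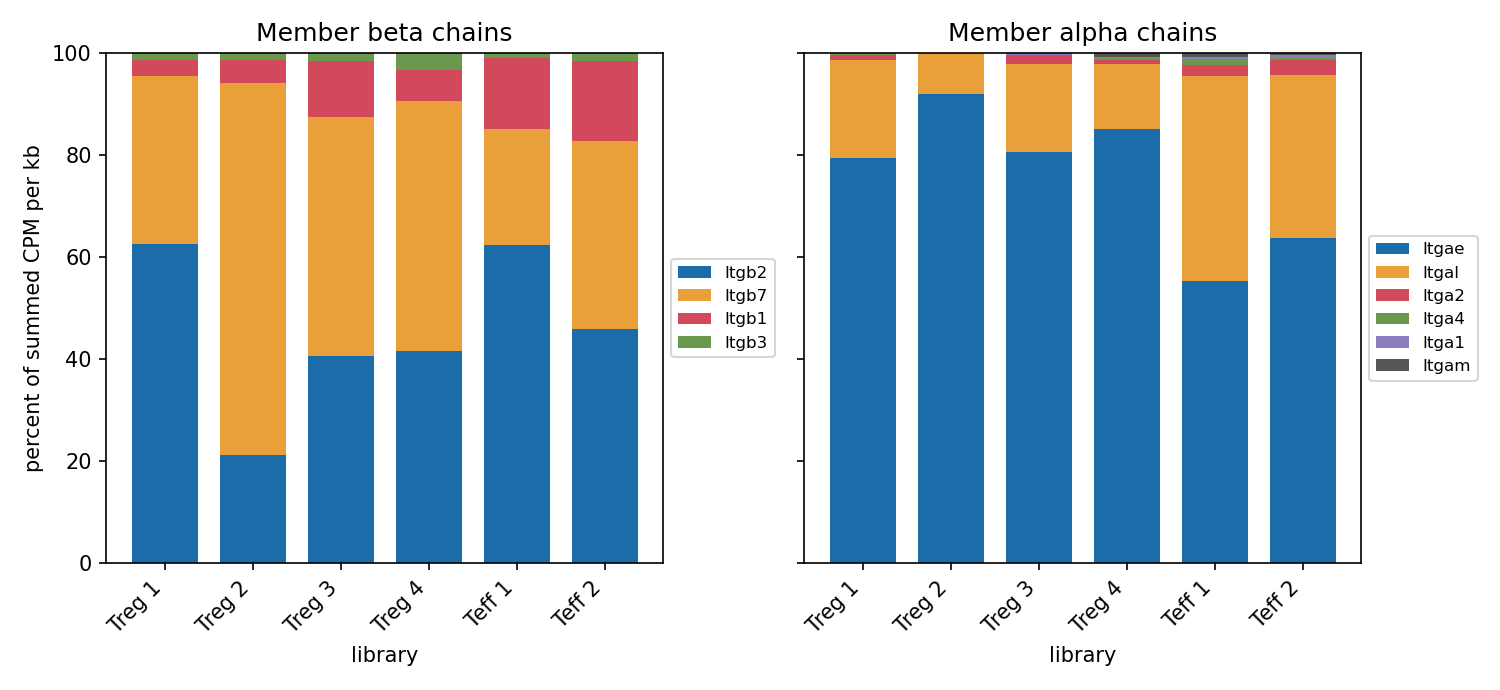
Share of each gene in the summed CPM per kilobase of the 4 beta chain genes (left) and the 6 alpha chain genes (right), stacked to 100% for each library. Itgb1 takes 3.06% to 10.8% of the beta chain sum in Tregs against 13.9% and 15.6% in Teffs, and Itgae takes 79.5% to 92.0% of the alpha chain sum in Tregs against 55.4% and 63.7% in Teffs.

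As shares of these sums, groups stayed apart for several chains, which are tied to each other because each set adds to 100%. Itgal took 7.93% to 19.2% of the alpha chain sum in Tregs and 31.9% and 40.1% in Teffs. Itgb2 took 21.2% to 62.7% of the beta chain sum in Tregs and 45.9% and 62.3% in Teffs, which overlap, and Itgb7 took 32.8% to 73.0% against 22.8% and 37.0%, which overlap too. Treg 2 was the library where beta 7 transcripts dominated most and beta 2 transcripts least. Lower Itgal in 3 Treg libraries and higher Itgae in all of them both enter the alpha chain shares, and the shares were not tested.

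The other integrin subunits were given by a list of 17 genes, all in the table, of which 12 were tested. None passed over all genes in edgeR, and 2 had an unadjusted p under 0.05, against 4.73% of all genes. Of the 12 log2 fold changes 9 were positive, against 53.4% of all genes tested, with a median of 1.52 against 0.07. Some of the positive values rest on a single Treg library. Among Tregs, Itga9 and Itgb6 had counts in Treg 3 alone, and Itgax and Itga7 in Treg 4 alone. The SE of these log2 fold changes was 3.3 to 3.6. Itgb8, whose product pairs with alpha V to release active TGF-beta, was at 220, 77.3, 87.7 and 150.2 CPM across Treg 1 to Treg 4, against 5.16 and 0 CPM in Teffs (log2 fold change 5.65 ± 1.52 SE, edgeR adjusted p = 0.619). The authors' deposited table gives Itgb8 an FDR of 0.0416. Itgav, the alpha V chain, was at 205, 118, 265 and 255 CPM in Tregs and at 62.6 and 60.3 CPM in Teffs (log2 fold change 1.78 ± 0.48 SE, edgeR adjusted p = 0.619). Itga6, a laminin receptor chain that pairs with beta 1 or beta 4, was at 32.3, 100.3, 63.3 and 100.3 CPM in Tregs and at 31.1 and 23.1 CPM in Teffs (log2 fold change 1.45 ± 0.74 SE). For these 3 genes every Treg library lay above both Teff libraries, by little for Itga6, as for 5.51% of all genes.

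**Figure D5:**
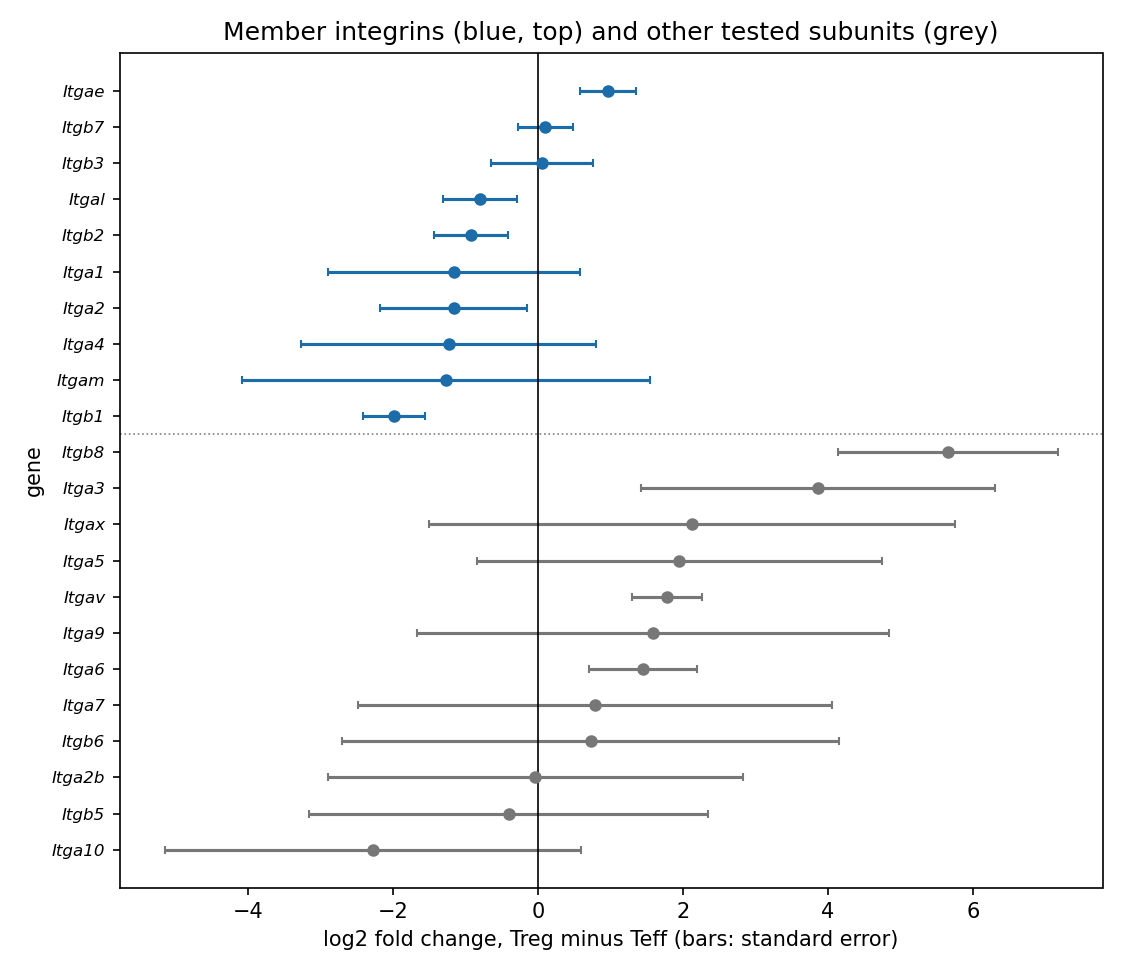
Log2 fold change, Treg minus Teff, with its standard error for the 10 leukocyte integrin genes (blue) and the 12 other tested subunits (grey). Among the 10, Itgb1 is lowest at -1.98 and Itgae highest at 0.97, while Itgb8 is at 5.65.

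Genes that switch integrins on and link them to actin did not move one way. Of 40 listed and tested, 0 passed in edgeR and 2 had an unadjusted p under 0.05, a share close to the 4.73% of all genes. Their log2 fold changes were positive for 20 and negative for 20, with a median of -0.04. The 3 genes with the lowest p are given as a description. Cd81, a tetraspanin that associates with integrins, was at 396, 225, 475 and 630.5 CPM across Treg 1 to Treg 4, against 124 and 17.4 CPM in Teffs (unadjusted p = 0.0135 in edgeR's quasi-likelihood test). Parvg, the leukocyte parvin that binds integrin-linked kinase, was at 127, 54.1, 69.2 and 86.9 CPM in Tregs and at 202 and 196 CPM in Teffs (unadjusted p = 0.0252). Skap2, an adaptor of integrin activation in myeloid cells, was at 36.6 to 96.3 CPM in Tregs and at 19.1 and 11.05 CPM in Teffs (unadjusted p = 0.0628). Groups did not overlap for 10 of the 40, against 15% of all genes, 5 in each direction.

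Of 25 listed genes for integrin ligands, 20 were in the table and 15 were tested, and none passed in edgeR. Icam1, the LFA-1 ligand that T cells also carry, was at 437, 791, 518 and 774 CPM across Treg 1 to Treg 4, against 346 and 346 CPM in Teffs (log2 fold change 0.86 ± 0.37 SE, unadjusted p = 0.0490, adjusted p = 0.99998). Thy1, a surface glycoprotein that can bind beta 2 and beta 3 integrins, was at 85.3 to 354 CPM in Tregs and at 298 and 446 CPM in Teffs, which overlap. Jam3, a junction protein that Mac-1 binds, was at 63.1 CPM in Treg 3 and 8.80 CPM or less in the other libraries. Cdh1, the E-cadherin that alpha E beta 7 binds, was chosen after its values were seen: it was at 57.9 and 49.6 CPM in Teffs, 45.1 CPM in Treg 3 and 0.428 CPM or less in the other Tregs (log2 fold change -2.24 ± 2.36 SE). The collagen and laminin genes of this list had their highest level in Treg 3, the library rich in fibroblast markers. Over the 15 tested, 12 log2 fold changes were positive, against 53.4% of all genes tested. The median over the 15 was 0.97, against 0.07 over all genes, and it was 0.42 when the filter on low counts was dropped. Most genes with positive values were highest in Treg 3. Every Treg library lay above both Teff libraries for 1 gene, Icam1, against 5.51% of all genes. They lay below for 1, Cdh1, against 9.49%.

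Among tested genes with a mean log2 CPM at or above the median, 2 followed Itgb1 most closely over the 6 libraries. They were Lgals3, which encodes galectin-3 (Pearson r = 0.989, Spearman rho = 0.886), and Zfp36l2, an RNA-binding protein that destabilises mRNA (r = 0.987, rho = 0.943). Lgals3 was at 93.3, 77.0, 171 and 125 CPM across Treg 1 to Treg 4, against 333 and 318 CPM in Teffs, and Zfp36l2 was at 59.3, 51.7, 125 and 98.7 CPM in Tregs and at 211 and 241 CPM in Teffs. Closest to Itgae were Lats2, a kinase of the Hippo pathway (r = 0.991, rho = 0.943), and Malt1, a protease of antigen receptor signalling (r = 0.982, rho = 1). Malt1 was at 742, 568, 198 and 566 CPM in Tregs and at 74.1 and 157 CPM in Teffs, and Lats2 was at 373, 210, 63.6 and 162 CPM against 41.4 and 66.7 CPM. These are the highest of 5747 candidates on log2 CPM in the same 6 libraries, picked for their likeness, and they describe these libraries only.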

How the data were processed

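Per the labels' protocols, sorted cells were frozen, RNA was purified on columns and libraries were made with a SMARTer ultra-low-input kit. HTSeq 0.6.1, TopHat2 2.0.12, Bowtie2 2.1.0.0, CASAVA 1.8.2 and SAMtools 0.1.19.0 are listed in the submitters' processing notes beside the build mm10, with no step assigned to any. The annotation, the strand setting and the test behind the authors' fold changes are not given in the sources read. The authors deposited raw counts per gene for 6 libraries, and, per the file headers, a log2 fold change, a mean log2 CPM, a p-value and an FDR. The 3 counter rows that name no gene (88.0% to 90.2% of column totals) were left out.

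The analysis ran in R 4.3.3, using edgeR 4.0.16 (quasi-likelihood test on group, TMM factors 0.913 to 1.05, filterByExpr with smallest count 10, 11775 genes tested). The biological coefficient of variation was 1.20. Standard errors are the log2 fold change over the root of F. Alternatives used DESeq2 1.42.0 and limma 3.58.1, other scalings and filters, a block on replicate number and libraries left out. Exon lengths and loci are from GENCODE M21 (GRCm38). Floors of 3 counts reflect counting error alone, because PCR duplicates count one molecule repeatedly. Genes beside the 10 were named by a rule, starting with the 3 lowest p of each list. For each integrin with an unadjusted p under 0.05, the 2 most like genes at or above the median level were added. Members and lists were chosen with earlier results of these data known.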

Additional observations from a re-analysis of the deposited data

Results flagged for a closer look

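The Itgam level of Treg 4, 17.5 CPM, lay far from the other 3 Treg libraries, which held 0 counts of this gene. The log2 ratio Itga1/Itgb1 was -7.34 in Treg 2, far from the other Treg libraries, because Itga1 had 0 counts there and the value rests on the pseudocount of 0.5 CPM. Of 18 sets of 4 Treg values checked, 2 stood apart in this way.
A chance rate of about 1 set in 20 would hold only for separate sets of normally spread values. The sets here share genes and both flagged values rest on counts of 0, so the 2 of 18 cannot be set against that rate.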

How the results depend on the processing

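In edgeR 5 of all genes were called, against 19 with no filter, 183 with DESeq2, 3 with limma-voom, 15 with the replicate block, 0 to 2 when single libraries were left out and 0 without Treg 3 and Teff 1, a setting chosen after seeing the data. Of the 10 integrin genes, 0 were called in edgeR and 1, Itgb1, in DESeq2 (log2 fold change -1.96). The replicate block compared replicate numbers 1 and 2 only. Deviations of same-numbered libraries from their group means correlated at -0.04 and 0.15. With 2 Teff libraries these deviations mirror each other, so the correlations cannot settle whether the numbers mark pairs. The numbers were not taken as pairs because the labels do not tie them to animals. The block called 0 of the 10 (Itgb1 at -2.55). All log2 fold changes of Itga1, Itga2, Itga4, Itgae, Itgal, Itgam, Itgb1 and Itgb2 kept their sign in every alternative run, but sizes moved. Over all alternatives Itga1 ran from -4.61 (replicate block) to -0.74, Itga2 from -2.36 (replicate block) to -0.79, Itga4 from -3.97 (replicate block) to -0.08 and Itgam from -9.002 to -0.37 (-8.99 with the block). Itgam was not tested with the filter at a mean CPM of 10, and DESeq2 gave it no p. Itgb3 changed sign with upper-quartile scaling (-0.056), the replicate block (-0.30) and without Treg 3 and Teff 1 (-0.12), and ran from -0.41 to 0.46 with single libraries left out. Itgb7 did so with upper-quartile scaling (-0.024) and without Treg 3 and Teff 1 (-0.12), and ran from -0.24 to 0.50. Upper-quartile scaling moved the median of all genes from 0.07 to -0.04, limma-voom moved it to -0.45 and the replicate block to -0.64. Among group differences in log2 ratio, with single libraries left out, Itgal/Itgb2 ran from -0.022 to 0.25, Itga4/Itgb1 from -2.004 to 0.19, Itga1/Itgb1 from -0.50 to 1.16 and Itga2/Itgb1 from -0.10 to 1.14, and Itga1/Itgb1 was 0.48 with a pseudocount of 2 CPM. The cause of these changes was not tested. With the longest transcript as length, 8 of the 10 genes kept their rank. Of the 4 Treg libraries, 1 held 0 counts of Itga1, 1 held 0 counts of Itga4 and 3 held 0 counts of Itgam, where a count of 0 allows up to 3 counts.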
